A study of Rattus norvegicus with 167 samples.

Results

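The interleukin genes of the rat spinal cord, ligands and receptors together, were followed after a complete transection that was left empty, bridged by a chitosan tube or bridged by a tube loaded with neurotrophin-3. The members were every gene whose single symbol in the array annotation begins with Il and a digit, without Il6 and Il6st. This gave 49 of the 14218 genes with a named probe set, each read from its probe set with the highest mean. All rats were adult female Wistar animals. Injured animals had the cord cut at T7/8 with 5 mm of tissue removed. Rats of the NT3 arm had a neurotrophin-3-loaded chitosan tube put into the gap and rats of the ET arm an empty tube, while the gap of the lesion controls (LC) held no tube. Uninjured cords were the baseline. Tissue came from 5 mm of cord rostral to the lesion, from the lesion site and from the caudal side on days 1, 3, 10, 20, 30, 60 and 90. Day 1 was not sampled at the lesion site, where ET was sampled on day 3 alone. The NT3, ET and LC arms held 21, 20 and 21 arrays rostrally, 18, 3 and 18 at the lesion site, and 21 each caudally, against 3 arrays of uninjured cord.

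Interleukins are secreted messengers between leukocytes and tissue cells, and most act through receptors made of shared and private chains. The interleukin-1 branch is started early after tissue damage by microglia, infiltrating neutrophils and macrophages, and is held in check by a receptor antagonist and by decoy receptors. Other branches use the common gamma chain, the chains of the interleukin-10 receptor or the interleukin-17 receptors, and most of them signal through Janus kinases and STAT proteins.

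Levels are log2 values as the authors deposited them, and a difference of 1 is a doubling. They do not compare one gene with another. The tests took in a gene if at least 3 arrays held it above their own 40th percentile, which was 6.49 to 6.60. This kept 12041 genes, among them 32 of the 49 interleukin genes. Il20rb, Il7, Il12a, Il2rb and Il11 passed on 4 to 10 arrays each, so that a gene of this kind could pass through the groups where it was high and had to differ. Calls are adjusted p-values under 0.05 from limma, adjusted over all tested genes, and differences are given with their standard error (SE). Whether each replicate is an animal of its own is not in the labels, and the p-values reflect the scatter among these arrays, which may be technical. The tissue is a mixture, and fewer cells of a type cannot be told apart from less RNA per cell. Every injury comparison uses the same 3 uninjured cords, whose beta-actin 3' minus 5' signal averaged 1.72 ± 0.51 (SD, n = 3), above that of each injured arm in each period (means of 0.82 to 1.35). RT1-CE10, a histocompatibility gene with strain-specific alleles, lay wholly above or wholly below 9 in 52 of 56 groups. Arms were therefore compared a second time over those days alone where both had it on the same side. The 3 uninjured cords lay below 9, while LC lay wholly above it on days 1, 30 and 90 in each segment sampled. Comparisons with uninjured cord and between days mix both sides and were not repeated in this way.

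The LC cord had most of its tested interleukin genes above the uninjured cord in every segment. At the lesion site 26 of 32 were called higher on day 3, 28 over days 10 to 30 and 27 over days 60 and 90, against 40.8%, 41.9% and 40.4% of all tested genes. There 2 were called lower in each period, against 33.5%, 37.1% and 35% of all genes. The median difference of the 32 genes at the lesion was 1.50, 1.49 and 1.17 in those periods, and that of all genes 0.08, 0.07 and 0.06. Rostrally 23, 22 and 16 were called higher early (days 1 and 3), in the middle (10 to 30) and late (60 and 90), against 36%, 29.1% and 24.9%, and 2 lower each time, against 31.8%, 31.3% and 28.7%. The rostral medians were 0.89, 0.56 and 0.36, those of all genes 0.03, -0.01 and -0.03. Caudally 22, 23 and 16 were called higher, against 34.3%, 29.2% and 25.2%, and 3, 2 and 2 lower, against 30.7%, 32.5% and 31.5%. The caudal medians were 0.62, 0.58 and 0.30, those of all genes 0.02, -0.02 and -0.04. The share called higher thus lay above that of all genes in all 9 comparisons, and the share called lower lay below it.

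**Figure D1:**
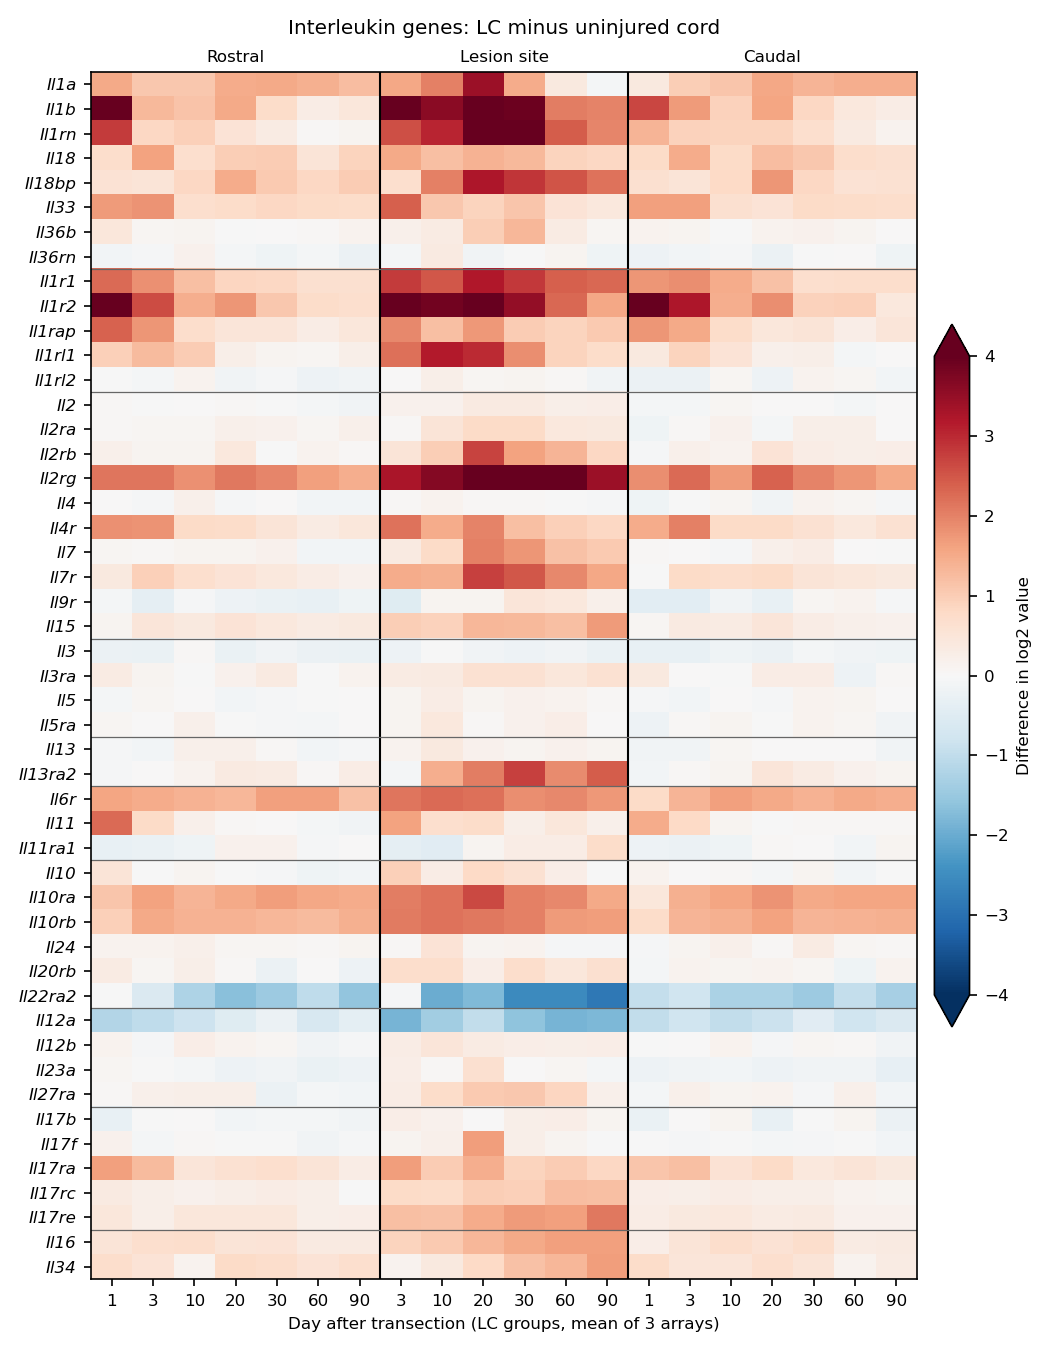
Difference of each LC group mean from the uninjured mean (log2, colour scale ending at 4 in either direction) for the 49 interleukin genes in rows, ordered by role, and for the days of the 3 segments in columns. Il1b, Il1r2, Il1rn and Il2rg are deepest in the colour of higher levels at the lesion, and Il12a and Il22ra2 carry the colour of lower levels.

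The secreted members include the interleukin-1 ligands and their antagonist. The 250 bases before their RefSeq starts (build GRCr8) are shown with those of Il11, another secreted member that was high on day 1. The highest LC mean of each was on day 1 or at the lesion. Other ligands called higher in the early rostral LC cord, Il33 and Il18 among them, are not shown. Capitals mark matches, on either strand, to the letters of a kappa-B site (GGG, any 3 bases, then TTCC), an AP-1 site (TGANTCA), a PU.1 site (GAGGAAG) or a TATA box (TATAAA), none of which overlap each other here.
Il1b: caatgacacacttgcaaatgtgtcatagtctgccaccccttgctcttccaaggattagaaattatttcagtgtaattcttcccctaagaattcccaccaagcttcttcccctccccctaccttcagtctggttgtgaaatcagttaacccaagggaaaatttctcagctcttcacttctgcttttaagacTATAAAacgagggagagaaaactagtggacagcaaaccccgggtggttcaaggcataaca
Il1a: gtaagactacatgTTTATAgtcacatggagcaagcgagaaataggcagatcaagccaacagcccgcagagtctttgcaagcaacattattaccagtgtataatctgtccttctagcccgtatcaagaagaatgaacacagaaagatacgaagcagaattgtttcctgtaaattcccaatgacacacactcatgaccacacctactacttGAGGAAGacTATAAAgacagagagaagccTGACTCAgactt
Il1rn: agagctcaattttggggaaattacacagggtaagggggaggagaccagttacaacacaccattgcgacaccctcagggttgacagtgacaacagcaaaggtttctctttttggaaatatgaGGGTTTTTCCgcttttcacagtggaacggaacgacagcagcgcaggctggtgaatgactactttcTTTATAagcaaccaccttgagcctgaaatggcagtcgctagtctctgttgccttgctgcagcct
Il11: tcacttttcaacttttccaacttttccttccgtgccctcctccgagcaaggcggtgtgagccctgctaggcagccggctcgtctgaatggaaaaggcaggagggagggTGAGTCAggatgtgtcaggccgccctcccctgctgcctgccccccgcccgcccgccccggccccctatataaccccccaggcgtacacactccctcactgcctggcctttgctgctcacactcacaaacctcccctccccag
These windows are chr3:137036582-137036831 on the minus strand for Il1b, chr3:136990018-136990267 on the minus strand for Il1a, chr3:27520072-27520321 on the plus strand for Il1rn and chr1:78098372-78098621 on the plus strand for Il11. Counting back from the start, Il1b has TATAAA at -60 to -55, and Il1a has PU.1 letters at -41 to -35, TATAAA at -32 to -27 and AP-1 letters at -12 to -6. The Il1a window also holds the TATA letters on the other strand at -237 to -232. Il1rn has kappa-B letters at -129 to -120 and the TATA letters on the other strand at -64 to -59, and Il11 has AP-1 letters at -142 to -136. RefSeq windows were found for 36 of the 49 genes. The kappa-B letters occurred in 3 of them (8.33%), Il1r1, Il1rn and Il27ra, and in 4.53% of all 33469 windows. Members were counted as genes with a match in any of their windows, and the background as single windows, so the shares differ in unit. The AP-1 letters occurred in 4 (11.1%), against 6.34% of all windows, the TATA letters in 8 (22.2%), against 12.9%, and PU.1 letters in 2 (5.56%), against 10.2%. Letters of a STAT site (TTCNNNGAA) occurred in 2, Il24 and Il36b, against 7.67% of all windows. A match is a description of the sequence alone.

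Il1b, the main secreted interleukin-1 of inflamed tissue, had 9.68, 10.96 and 10.88 in the rostral LC cord on day 1 and 7.42, 6.96 and 7.65 on day 3, against 5.97, 5.91 and 6.25 in uninjured cord. Both days lay wholly above the uninjured cords, and day 1 wholly above day 3. At the lesion the LC arrays had 10.63, 9.70 and 10.21 on day 3, 9.80, 9.67 and 9.55 on day 10, 12.20, 11.84 and 11.19 on day 20, and 10.21, 10.24 and 9.48 on day 30. They had 7.88, 8.45 and 7.97 on day 60 and 7.90, 8.26 and 7.88 on day 90. The lesion therefore had its highest Il1b on day 20, and was above the uninjured cords in every array through day 90. Il1b rose at the lesion by 4.14 (SE 0.29, adjusted p = 4.2e-14) on day 3, by 4.42 (SE 0.24) over days 10 to 30 and by 2.01 (SE 0.25) over days 60 and 90. Rostrally it rose by 2.88 (SE 0.52, adjusted p = 3.8e-06) early. Over days 60 and 90 the rostral difference of 0.38 (SE 0.52) was not called, with an adjusted p of 0.558.

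Il1a, an alarmin that acts on the same receptor, had 7.40, 7.23 and 7.73 at the LC lesion on day 3, 9.87, 9.07 and 9.07 on day 20 and 5.77, 5.90 and 5.83 on day 90, against 5.90, 5.85 and 5.95 in uninjured cord. The day 20 arrays stood highest, and the day 90 arrays overlapped the uninjured cords. Il1a rose at the lesion by 2.31 (SE 0.19) over days 10 to 30, while its late difference of 0.17 (SE 0.20) was not called (adjusted p = 0.455). Next to the lesion it was still above uninjured cord late: the rostral LC arrays had 7.38, 7.32 and 7.25 on day 60 and 7.32, 7.42 and 6.67 on day 90, all above uninjured cord. The late difference was 1.33 (SE 0.25) rostrally and 1.47 caudally, both called. The second probe set of Il1a gave 0.96 and 1.01 for these.

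Il1rn, the antagonist that occupies the interleukin-1 receptor without signalling, had 7.57, 8.94 and 8.25 in the rostral LC cord on day 1, against 5.62, 5.46 and 5.31 in uninjured cord. At the LC lesion it had 7.84, 8.12 and 8.18 on day 3, 9.09, 8.41 and 8.05 on day 10, 10.35, 10.52 and 9.81 on day 20 and 10.26, 9.58 and 9.99 on day 30. On day 60 the values were 7.20, 7.67 and 8.81, and on day 90 they were 7.55, 7.55 and 7.14. Every lesion array lay above every uninjured one, and days 20 and 30 were highest. Il1rn rose there by 2.58 (SE 0.35), 4.10 (SE 0.28) and 2.19 (SE 0.30) in the early, middle and late periods, with a late adjusted p of 9.6e-08.

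Il33, an alarmin stored in nuclei of glia, had 11.89, 11.95 and 11.86 at the LC lesion on day 3 and 10.37, 10.66 and 10.77 on day 10, against 9.57, 9.56 and 9.41 in uninjured cord. The 3 groups did not overlap, and day 3 was highest. It rose by 2.39 (SE 0.11, adjusted p = 4.2e-19) on day 3 and by 1.74 (SE 0.11) in the early rostral cord. Il18, activated by the same protease as interleukin-1 beta, rose by 1.51 (SE 0.13) at the lesion on day 3, 1.30 (SE 0.10) over days 10 to 30 and 0.87 (SE 0.11) late. Il18bp, the secreted protein that neutralises interleukin-18, ran later: its LC lesion arrays had 7.90, 7.85 and 8.26 on day 3, 10.45, 10.55 and 10.66 on day 20 and 9.36, 9.73 and 9.46 on day 90, against 7.23, 7.40 and 7.37 in uninjured cord. The day 20 arrays were highest and no day overlapped uninjured cord. It rose by 0.67 (SE 0.18) on day 3 and by 2.70 (SE 0.15) over days 10 to 30. In the caudal LC cord on day 20 Il18bp had 8.43, 10.30 and 8.56, with replicate 2 standing apart.

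The interleukin-1 receptors moved with their ligands early. Il1r2, a decoy receptor that binds interleukin-1 without signalling, had 9.68, 10.83 and 11.25 in the rostral LC cord on day 1, 7.46, 6.52 and 7.37 on day 3 and 5.24, 5.21 and 5.06 on day 90, against 4.40, 4.55 and 4.55 in uninjured cord. At the LC lesion it had 10.75, 8.96 and 10.15 on day 3, 10.68, 9.68 and 9.80 on day 20 and 5.62, 6.49 and 6.07 on day 90. No array of these groups reached down to the uninjured cords. The difference from uninjured cord was 5.45 (SE 0.37, adjusted p = 1.6e-14) at the lesion on day 3. As a mean over days 1 and 3 it was 4.35 (SE 0.40) rostrally and 3.87 (SE 0.27) caudally, and all were called. By days 60 and 90 the rostral difference was 0.71 (SE 0.40, adjusted p = 0.139).

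Il1r1, the signalling receptor, had 10.33, 10.41 and 10.02 at the LC lesion on day 3 and 9.70, 10.03 and 9.52 on day 90, against 7.25, 7.69 and 7.42 in uninjured cord, with no overlap. It rose by 2.80 (SE 0.15), 2.83 (SE 0.12) and 2.35 (SE 0.13) at the lesion in the 3 periods. Its other 2 probe sets, which lie far lower on the scale, gave 0.36 and 0.49 in the middle period. Il1rap, the accessory chain, rose by 2.06 (SE 0.16) in the early rostral cord and 1.92 (SE 0.14) on day 3 at the lesion. Il1rl1, the receptor of interleukin-33, had 7.75, 7.06 and 7.68 at the LC lesion on day 3, 7.90, 8.98 and 8.52 on day 10, 8.15, 8.70 and 8.01 on day 20 and 6.24, 5.88 and 5.94 on day 90, against 5.18, 5.31 and 5.42 in uninjured cord. All these arrays were above uninjured cord, with days 10 and 20 above day 90. Il1rl1 rose by 2.66 (SE 0.19) over days 10 to 30, where its second probe set gave 0.54, and that of Il1rap gave -0.12 beside 1.31.

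Of the common gamma chain branch, the shared chain Il2rg had 8.47, 8.64 and 8.88 at the LC lesion on day 3, 10.89, 10.91 and 10.67 on day 20 and 8.52, 9.18 and 8.77 on day 90, against 5.34, 5.46 and 5.35 in uninjured cord. Day 20 was highest and all days lay more than 3 units above uninjured cord. The differences were 3.28 (SE 0.16), 4.58 (SE 0.13, adjusted p = 8.3e-25) and 3.78 (SE 0.14). In the neighbouring cord it rose by 2.15 (SE 0.22) early and 1.55 (SE 0.22) late rostrally, and by 2.06 and 1.65 caudally. Il4r, the interleukin-4 receptor chain, was an early member, with a rise of 2.18 (SE 0.11) at the lesion on day 3 and 0.88 (SE 0.09) late.

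Il7r, Il7 and Il2rb of that branch were highest at the lesion on day 20 or 30. Il7r, the interleukin-7 receptor of lymphocytes, had 9.39, 8.82 and 9.42 in LC on day 20, against 6.60, 6.46 and 6.32 in uninjured cord. Its ligand Il7 had 6.96, 7.57 and 7.14, against 5.27, 5.30 and 5.09, and Il2rb, a chain of the interleukin-2 and interleukin-15 receptors, had 8.34, 7.99 and 7.60, against 5.13, 5.26 and 5.46. None of the groups overlapped uninjured cord. Over days 10 to 30 they rose by 2.22 (SE 0.12), 1.52 (SE 0.14) and 1.77 (SE 0.17). Il7 and Il2rb passed the level filter on 7 and 9 arrays, all at the lesion, so a rise there was favoured by the filter. In the early rostral cord Il7 and Il2rb differed by 0.06 (SE 0.09) and 0.15 (SE 0.11), with adjusted p-values of 0.593 and 0.232. No rostral array held either gene above the filter level, so these values cannot show whether the cord there changed. Il15, a growth factor of natural killer and memory T cells, differed by 1.00 (SE 0.11), 1.19 (SE 0.09) and 1.46 (SE 0.09) at the lesion in the 3 periods.

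The 2 chains of the interleukin-10 receptor stayed high on both sides of the lesion. Il10ra had 8.44, 8.92 and 8.53 in the rostral LC cord on day 90, against 7.18, 7.08 and 7.16 in uninjured cord, and Il10rb had 10.22, 10.47 and 10.24, against 9.02, 9.02 and 8.65. Neither overlapped uninjured cord. Late rostral differences were 1.52 (SE 0.14) and 1.34 (SE 0.09). The second probe set of Il10ra gave 0.06 there. Il22ra2, the secreted binding protein of interleukin-22, ran the other way: at the LC lesion it had 8.04, 7.12 and 7.26 on day 3 and 4.66, 4.71 and 4.58 on day 90, against 7.65, 7.42 and 7.48 in uninjured cord. Day 3 overlapped the uninjured cords and day 90 lay wholly below them. It fell by 2.10 (SE 0.20) over days 10 to 30 and by 2.71 (SE 0.21, adjusted p = 3e-13) late. Rostrally and caudally it fell by 1.31 and 1.14 late.

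Il12a, the p35 subunit of interleukin-12, had 4.80, 4.91 and 5.27 at the LC lesion on day 3 and 5.10, 4.93 and 5.07 on day 90, against 6.98, 6.52 and 7.03 in uninjured cord. All 6 lay below uninjured cord. The gene passed the level filter on 8 arrays, among them the 3 uninjured cords and 0 at the lesion, so a fall was favoured by the filter. It fell by 1.85 (SE 0.18), 1.32 (SE 0.14) and 1.82 (SE 0.15) at the lesion, and by 1.09 (SE 0.13) early rostrally. Il6r, the binding chain of the interleukin-6 receptor, rose in all 9 injury comparisons, by 2.13 (SE 0.17) on day 3 at the lesion and 1.41 (SE 0.13) late rostrally. Il11, a cytokine of the interleukin-6 family, had 7.10, 7.21 and 8.17 in the rostral LC cord on day 1 and 5.09, 5.07 and 5.14 on day 90, against 5.40, 4.96 and 5.33 in uninjured cord. Day 1 stood wholly above both other groups, which overlapped. Il11 rose by 1.51 (SE 0.15) early rostrally and 1.61 (SE 0.17) on day 3 at the lesion. Il11 passed the level filter on 10 arrays, 0 of them uninjured, so a rise was favoured by the filter. Its receptor Il11ra1 fell at the lesion by 0.34 (SE 0.10, adjusted p = 0.002) on day 3 and rose by 0.51 (SE 0.08) late.

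Il13ra2, a chain that binds interleukin-13 with high affinity and is known as its decoy, had 5.82, 6.06 and 5.76 at the LC lesion on day 3, 6.84, 7.86 and 7.60 on day 10, 9.10, 8.50 and 8.50 on day 30 and 8.63, 8.53 and 8.00 on day 90, against 6.11, 5.74 and 6.05 in uninjured cord. Day 3 overlapped uninjured cord and the later days lay above it. It rose by 2.08 (SE 0.22) over days 10 to 30 and 2.16 (SE 0.23) late. Rostrally its late difference of 0.18 (SE 0.14) was not called (adjusted p = 0.291). Il17ra, the common chain of the interleukin-17 receptors, rose by 1.68 (SE 0.16) at the lesion on day 3, and Il17re, the interleukin-17C receptor chain, by 1.88 (SE 0.12) late. Il17rc, the partner chain for interleukin-17A and F, rose by 1.22 (SE 0.12) late. Il17b, a ligand of the interleukin-17 family, rose by 0.25 (SE 0.11) on day 3, and its later differences of 0.14 and 0.18 were not called. Il16, a chemoattractant for CD4 cells, rose by 1.64 (SE 0.11) late at the lesion, and Il34, the second ligand of the CSF1 receptor, by 1.50 (SE 0.13). Il34 had differed by 0.14 (SE 0.15, adjusted p = 0.421) on day 3. Il20rb and Il3ra, receptor chains for interleukin-20 and interleukin-3, rose by 0.54 and 0.53 late at the lesion. Il20rb passed the level filter on 4 arrays, all at the lesion.

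The other 17 interleukin genes lay below the filter and were not tested. They are Il10, Il12b, Il13, Il17f, Il1rl2, Il2, Il23a, Il24, Il27ra, Il2ra, Il3, Il36b, Il36rn, Il4, Il5, Il5ra and Il9r. None was above the 40th percentile in any array, save Il23a in 1. This limit is one of the array: a probe set near its background can hide a change. Il4 was wholly above uninjured cord in 0 of the 55 injured groups, and Il3 was wholly below it in 38. Il2ra, the inducible chain of the interleukin-2 receptor, was wholly above in 19 groups, and Il10 in 11. Il10 had 4.51, 3.86 and 5.22 at the LC lesion on day 3, against a mean of 3.57 ± 0.04 (SD, n = 3) in uninjured cord. The LC arrays were all higher and spread widely.

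Within the LC arm the lesion site was set against the neighbouring cord of both sides. On day 3, 23 of 32 members were called higher at the lesion, against 31.1% of all genes, and 2 lower, against 29.8%. Over days 10 to 90, 28 were higher, against 48.3%, and 2 lower, against 37.1%. Medians were 0.53 and 0.69, those of all genes 0.02 and 0.08. The day 3 differences were led by Il1b at 2.64 (SE 0.26), Il1r2 at 2.53, Il1rn at 1.71, Il1rl1 at 1.12, Il2rg at 1.08 and Il1r1 at 0.95, and Il12a stood at -0.95 and Il34 at -0.38. Over days 10 to 90 the leaders were Il1rn at 2.84 (SE 0.11), Il1b at 2.64 (SE 0.12), Il2rg at 2.42, Il1r2 at 2.23, Il13ra2 at 1.87 and Il1r1 at 1.75, and Il22ra2 stood at -1.02 and Il12a at -0.89. Il33 and Il1a were not called, with differences of 0.10 (SE 0.05, adjusted p = 0.0585) and 0.08 (SE 0.10, adjusted p = 0.437). Between the rostral and caudal LC cord 0 of 32 members were called, against 0.166% of all genes higher and 0.0249% lower. At an unadjusted p under 0.05 limma gave 2.

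Late LC cord was then set against early LC cord, a comparison that needs no uninjured tissue. Early was days 1 and 3 beside the lesion but day 3 alone at the lesion, so the segments do not share a starting point. Rostrally 3 members were called higher, against 25.6% of all genes, and 17 lower, against 32.6%. Caudally 5 were higher, against 22.7%, and 15 lower, against 35.5%. At the lesion 11 were higher, against 23.6%, and 14 lower, against 30%. The medians were -0.21, -0.15 and -0.24 in that order, those of all genes -0.04, -0.06 and -0.04. Rostrally the falls were led by Il1r2 at -3.65 (SE 0.33), Il1b at -2.50 (SE 0.43), Il1rn at -1.72, Il1rap at -1.70, Il11 at -1.61 and Il4r at -1.43, and Il12a, Il18bp and Il11ra1 rose by 0.57, 0.38 and 0.28. Caudally Il1r2 stood at -3.19, Il1b at -1.82, Il1rap at -1.26, Il4r at -1.22, Il1r1 at -1.10 and Il11 at -1.09, while Il1a rose by 0.77 and Il10ra by 0.64. Il6r, Il10rb and Il11ra1 rose by 0.41, 0.37 and 0.22 there. At the lesion Il13ra2 rose by 2.24 (SE 0.23), Il18bp by 1.68, Il34 by 1.36, Il11ra1 by 0.85, Il7 by 0.76 and Il16 by 0.74. The lesion site falls were led by Il1r2 at -3.52, Il22ra2 at -2.67, Il1b at -2.12, Il33 at -1.89, Il1rl1 at -1.39 and Il1a at -1.39. Il1r2 and Il1b were thus lower on days 60 and 90 than early in all 3 segments. At the lesion the LC arrays of Il1b on day 20 lay wholly above those of day 3. For Il1r2 the LC arrays of day 3 and day 20 overlapped, so its highest mean on day 20 does not set that day apart. The late rise of Il13ra2, Il34, Il7 and Il16 was called at the lesion alone, and whether segments differ in it was not tested. Il7 passed the level filter through lesion arrays alone.

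**Figure D2:**
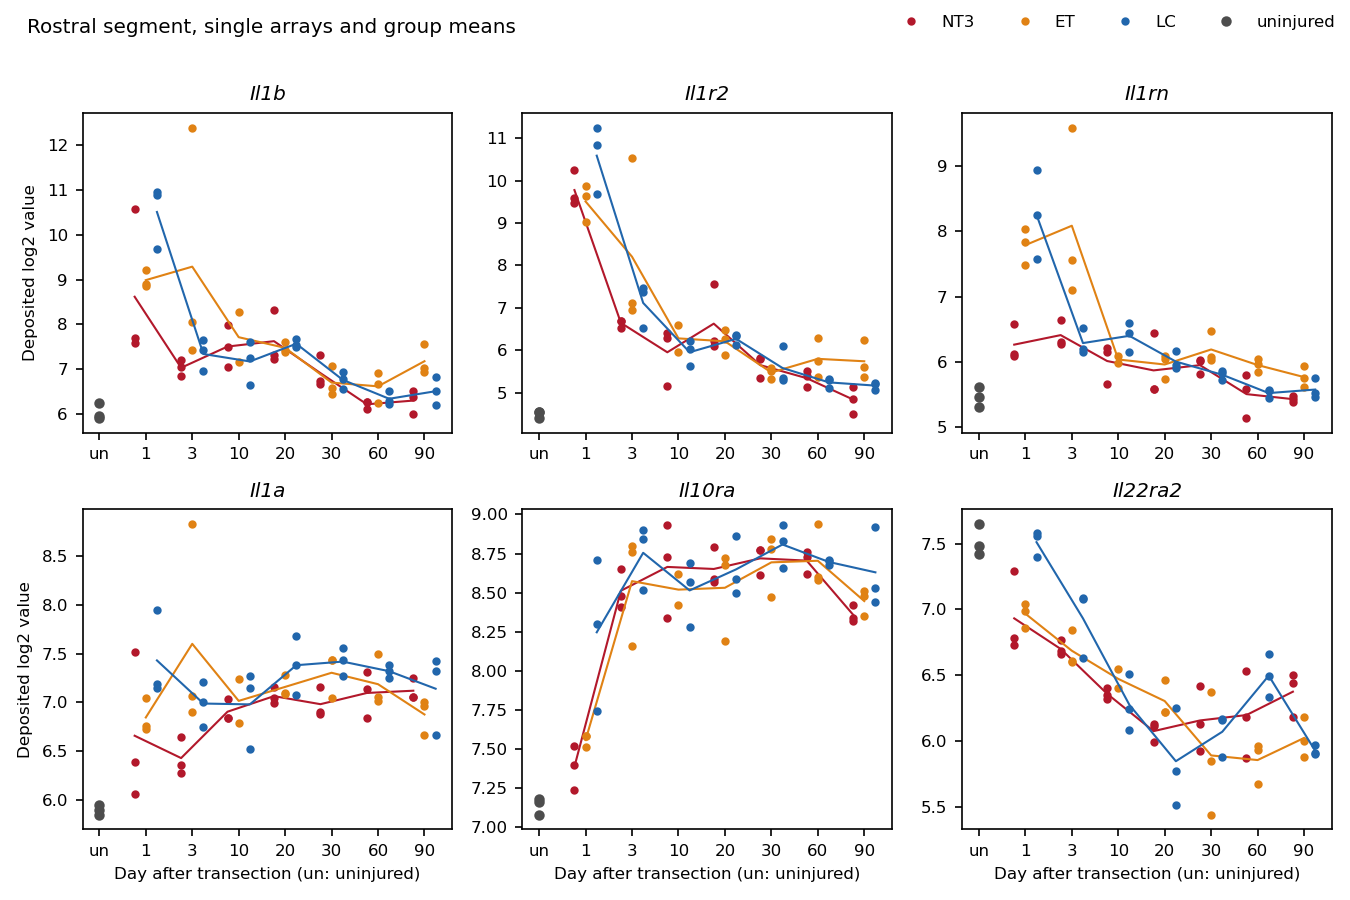
Levels (log2) of Il1b, Il1r2, Il1rn, Il1a, Il10ra and Il22ra2 in the rostral cord by day for NT3, ET, LC and uninjured arrays, with points for arrays and lines through group means. The LC means of Il1b and Il1r2 are highest on day 1 and lie lower by day 90, Il10ra has 8.44 to 8.92 in LC on day 90, and 1 ET array of day 3 reaches 12.39 for Il1b.

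Downstream and partner genes were read in the same injury comparisons. Of all 12041 tested genes, 4332 were called higher and 3825 lower in the early rostral LC cord. At the lesion over days 10 to 30 the counts of all genes were 5049 higher and 4463 lower. In the early rostral LC cord 12 of 18 interleukin-1 signalling partners were called higher and 1 lower, led by Ptgs2, the inducible prostaglandin synthase, at 3.41 (SE 0.31) and Nfkbiz, an inducible NF-kappa-B regulator, at 2.55 (SE 0.21). Of the Janus kinases, STATs and SOCS proteins 10 of 14 were higher and 0 lower, with the STAT inhibitor Socs3 at 1.87 (SE 0.11) and the phosphatase Ptpn6 at 2.07 (SE 0.10). At the lesion over days 10 to 30 the counts were 14 higher and 1 lower of 18 partners and 13 of 14 higher in the second list. Partner subunits with other names were higher in 8 of 11 rostrally and 11 of 11 at the lesion, led there by Csf2ra at 3.52 (SE 0.13). Genes induced by interleukin-4 and interleukin-13 were higher in 5 of 9 and 6 of 9, among them Mrc1 at 5.00 (SE 0.14) and Arg1 at 3.25 (SE 0.25) at the lesion. List medians in those 4 lists at the lesion were 1.37, 0.79, 1.23 and 2.31, against 0.07 for all genes.

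Markers of several immune cells were called higher in the same comparisons, to be read beside the counts of all genes given above. In the early rostral LC cord microglia and macrophage markers were higher in 11 of 11, neutrophil markers in 4 of 5, with S100a8 at 3.46 (SE 0.70), and T cell markers in 10 of 12. B cell markers were higher there in 1 of 4, natural killer markers in 2 of 5 and mast cell markers in 0 of 3. The mean level of the neutrophil list ran from 7.88 to 10.19 there, against 6.16 to 6.95 in uninjured cord. At the lesion over days 10 to 30 T cell markers were higher in 12 of 12, with a list level of 7.29 to 8.68 against 5.81 to 5.88 in uninjured cord. Microglia and macrophage markers were higher in 10 of 11, at 10.87 to 11.44 against 8.27 to 8.40, natural killer markers in 5 of 5 and fibroblast markers in 7 of 7, while neuron markers were lower in 7 of 7. B cell markers were higher in 4 of 4, neutrophil markers in 4 of 5 and mast cell markers in 2 of 3. The part of these cells in the interleukin levels was not tested.

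At the lesion site the cord under an NT3-loaded tube had lower interleukin levels than the LC cord on most days. ET was not sampled there after day 3, so the factor and the tube cannot be told apart on later days. Il1rn had 9.12, 8.29 and 9.58 in NT3 on day 3, against 7.84, 8.12 and 8.18 in LC, and NT3 lay above LC. On day 10 NT3 had 7.08, 6.05 and 6.42, against 9.09, 8.41 and 8.05 in LC, and on day 20 NT3 had 6.03, 6.17 and 6.51, against 10.35, 10.52 and 9.81. From day 10 on, every NT3 array lay below every LC array of the same day. Averaged over the 6 days Il1rn fell by 2.01 (SE 0.14, adjusted p = 1e-12), with a day 20 difference of -3.99. Il1b had 8.55, 8.67 and 8.73 in NT3 on day 20, against 12.20, 11.84 and 11.19 in LC. It had 9.59, 9.71 and 10.91 in NT3 on day 3, against 10.63, 9.70 and 10.21 in LC, where the groups overlapped. Its mean difference was -1.19 (SE 0.12, adjusted p = 1.9e-09), and on 4 of 6 days NT3 lay wholly below LC.

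In all, 23 of 32 interleukin genes were called lower in NT3 than in LC at the lesion, against 22.9% of all genes, and 2 were called higher, against 19%. Their median difference was -0.32, that of all genes -0.01. Il1r2 had 7.09, 7.53 and 7.39 in NT3 on day 20, against 10.68, 9.68 and 9.80 in LC, and fell by 1.16 (SE 0.15) over the 6 days. Il2rg had 8.55, 8.59 and 8.64 in NT3 on day 20, against 10.89, 10.91 and 10.67 in LC, without overlap. On day 3 it had 9.17, 9.63 and 9.72 in NT3, against 8.47, 8.64 and 8.88 in LC, with NT3 wholly above. Il2rg fell by 0.94 (SE 0.06, adjusted p = 3.6e-13) over the days. Il7r differed by -0.76 (SE 0.06), Il7 by -0.64 (SE 0.07), Il17re by -0.55 (SE 0.05) and Il2rb by -0.52 (SE 0.08). Il7 and Il2rb passed the level filter through lesion arrays alone. Il1a had 6.60, 5.92 and 6.19 in NT3 on day 20, against 9.87, 9.07 and 9.07 in LC, and fell by 0.72 (SE 0.10). Without day 20, a setting chosen after seeing the data, Il1a differed by -0.24 and was no longer called (adjusted p = 0.0831), Il1b by -0.81 and Il1rn by -1.61.

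The 2 higher genes were receptor chains. Il13ra2 had 10.84, 11.16 and 10.55 in NT3 on day 30, against 9.10, 8.50 and 8.50 in LC, and 8.20, 8.39 and 8.80 in NT3 on day 90, against 8.63, 8.53 and 8.00 in LC. NT3 lay wholly above LC on 4 of 6 days and overlapped it on day 90. The mean difference was 1.17 (SE 0.11, adjusted p = 3.1e-10). Il11ra1 had 10.68, 10.71 and 10.86 in NT3 on day 30, against 9.29, 9.50 and 9.64 in LC, and rose by 0.52 (SE 0.04, adjusted p = 4.8e-12). NT3 lay wholly above LC on 5 of 6 days, and wholly below on day 3. The 7 genes not called were Il20rb, Il16, Il17b, Il22ra2, Il12a, Il15 and Il1rl1, with differences from -0.20 to 0.09. Il22ra2 hid an exchange of order: NT3 had 6.72, 6.44 and 6.86 on day 3, against 8.04, 7.12 and 7.26 in LC, and 5.28, 5.30 and 5.60 on day 90, against 4.66, 4.71 and 4.58 in LC. NT3 was wholly lower on the first of these days and wholly higher on the second.

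The size of the NT3 difference depended on the day in 29 of 32 members by limma's F-test, against 50.6% of all genes; Il17re, Il20rb and Il17b were not called. On day 3 the median of NT3 minus LC over the 32 genes was 0.09, with 9 genes wholly above LC and 5 wholly below. Of all tested genes, 16% lay wholly above LC and 16.3% wholly below on that day. The median was -0.31 on day 10, -0.73 on day 20, -0.37 on day 30, -0.28 on day 60 and -0.29 on day 90. On day 20, 23 genes lay wholly below LC, against 25.1% of all tested genes, and 2 wholly above, against 20%. Il1b differed by -0.11, -1.67, -3.09, -1.41, -0.29 and -0.55 on days 3, 10, 20, 30, 60 and 90, and Il13ra2 by 0.27, 1.48, 1.52, 2.15, 1.49 and 0.08. Both are thus largest in the middle of the course. Day 20 is also the LC peak of 12 of the 32 genes, and its LC arrays carry the replicate numbers 2, 3 and 5; without replicate 5 the same count of 25 genes was called.

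**Figure D3:**
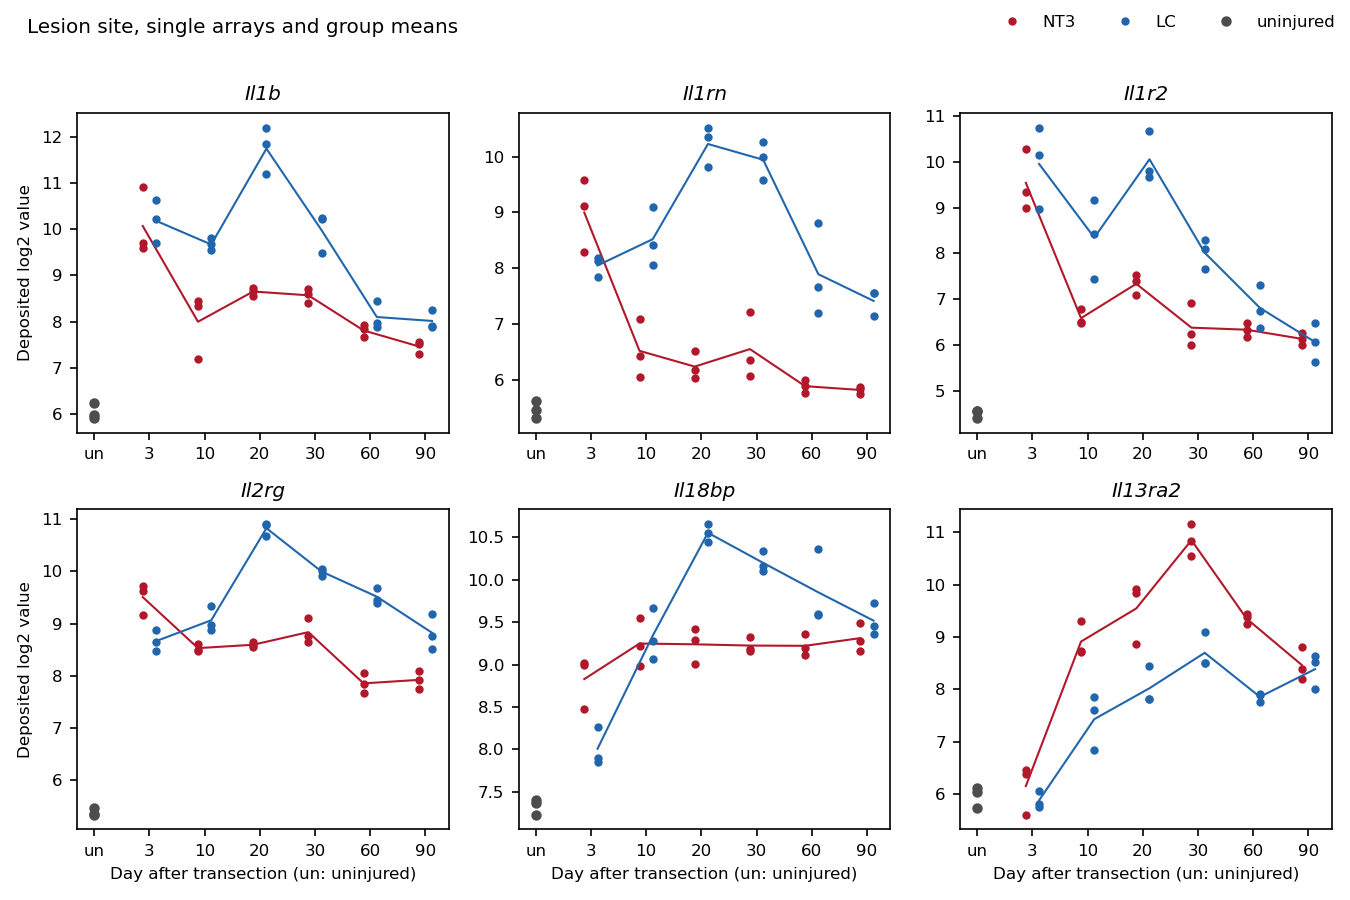
Levels (log2) of Il1b, Il1rn, Il1r2, Il2rg, Il18bp and Il13ra2 at the lesion site by day for NT3, LC and uninjured arrays, with points for arrays and lines through group means. Il1b overlaps between NT3 and LC on day 3 and does not on day 20, where Il1rn has 6.03 to 6.51 in NT3 and 9.81 to 10.52 in LC, and Il13ra2 lies higher in NT3 on days 10 to 60.

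Cell markers differed between these arms too. Of all 12041 tested genes, 2291 were called higher and 2754 lower in NT3. T cell markers were lower in NT3 in 11 of 12, with list levels of 6.80 to 7.36 in NT3 over days 10 to 30, against 7.29 to 8.68 in LC. Microglia and macrophage markers were lower in 6 of 11, at 9.77 to 10.88 in NT3, against 10.87 to 11.44 in LC. Neutrophil markers were higher in 3 of 5 and lower in 2, and neuron markers were higher in 7 of 7. B cell markers were lower in 3 of 4 and mast cell markers in 1 of 3. Natural killer markers were higher in 2 of 5 and lower in 1. Skeletal muscle markers were higher in 8 of 8, with a list level of 8.00 to 10.15 in NT3 and 5.76 to 7.57 in LC over those days, and Acta1 at 3.68 (SE 0.48). With the level of the muscle list as a covariate 25 interleukin genes were called and Il1rn differed by -1.93. Over days 10 to 30 the muscle list levels of the arms did not overlap, so this fit cannot separate muscle tissue from arm there. The part of T cells, macrophages and neurons in the differences was not tested. With the 3 days of like RT1-CE10 alone, days 10, 30 and 60, 22 genes were called, Il1rn differed by -2.47 and Il13ra2 by 1.71.

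Of the pathway lists, interleukin-1 signalling partners were lower in NT3 in 12 of 18 and higher in 0, with Ptgs2 at -0.75 (SE 0.10) and Nfkbiz at -0.61 (SE 0.09). Janus kinases, STATs and SOCS proteins were lower in 10 of 14, with Jak2 at -0.68 (SE 0.07) and Socs3 at -0.56 (SE 0.08). Partner subunits were lower in 9 of 11 and higher in 1, the ligand Tslp at 0.19 (SE 0.06). Of the genes induced by interleukin-4 and interleukin-13, 6 of 9 were lower, with the arginase Arg1 at -2.71 (SE 0.12) and the chemokine Ccl24 at -1.19 (SE 0.14), and 2 higher. The list medians were -0.26, -0.27, -0.28 and -0.73, that of all genes -0.01. Of all 12041 tested genes, 2754 were called lower and 2291 higher.

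Away from the lesion the arms were much closer. Rostrally 1 of 32 genes was called between NT3 and LC, against 1.61% of all genes lower, and 0 higher, against 1.15%. At an unadjusted p under 0.05 limma gave 17, and the median was -0.11, that of all genes -0.02. With array weights 16 were called, 14 of them lower, with 75th percentile scaling 4 and with 1 fit of all arrays 3. The called gene was Il4r, at -0.25 (SE 0.06, adjusted p = 0.0217), which on the 4 days with RT1-CE10 alike was -0.11 (adjusted p = 0.67); there Il13ra2 was the 1 gene called, higher in NT3. Without LC day 1 replicate 1 or LC day 10 replicate 1 the count was 7, without LC day 3 replicate 2 it was 6, and without NT3 day 10 replicate 2 it was 3. It was 2 without NT3 day 1 replicate 1, NT3 day 3 replicate 2, NT3 day 30 replicate 3, LC day 20 replicate 2 or LC day 90 replicate 3. On day 1 Il1rn had 6.58, 6.12 and 6.10 in rostral NT3 cord, against 7.57, 8.94 and 8.25 in LC, with NT3 wholly below. Il1b had 10.58, 7.58 and 7.69 in NT3, against 9.68, 10.96 and 10.88 in LC, and NT3 replicate 1 overlapped LC.

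Caudally 8 genes were called lower in NT3 than in LC, against 3.85% of all genes, and 2 higher, against 5.91%, with a median of -0.10 against 0.01 for all genes. Il1rn differed by -0.38 (SE 0.08, adjusted p = 0.0014), Il1a by -0.31, Il2rg by -0.29, Il7r by -0.21, Il4r by -0.20 and Il1rap by -0.19, and Il22ra2 rose by 0.28 (SE 0.09, adjusted p = 0.0321) and Il12a by 0.23 (SE 0.05). The other 2 lower genes were Il2rb and Il11, at -0.15 and -0.16, named here because the count is small. Il1rn was lower in mean on all 7 days and wholly below LC on 6. Without LC day 10 replicate 3 the count was 5, and on the days with RT1-CE10 alike it was 2, Il12a at 0.25 and Il1rn at -0.47. Il22ra2, Il7r and Il1rap lost the call without any one of 11, 4 and 3 arrays, among them LC day 10 replicate 3 for each, with adjusted p up to 0.0723. The NT3 difference was not called to vary between rostral and caudal cord in any of the 32 genes, against 0.0166% and 0.133% of all genes higher and lower, and limma gave 2 at an unadjusted p under 0.05. T cell markers were lower in 2 of 12 caudally and 3 of 12 rostrally, and microglia and macrophage markers in 3 of 11 and 1 of 11. Of all 12041 tested genes, 463 were called lower caudally and 194 rostrally.

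**Figure D4:**
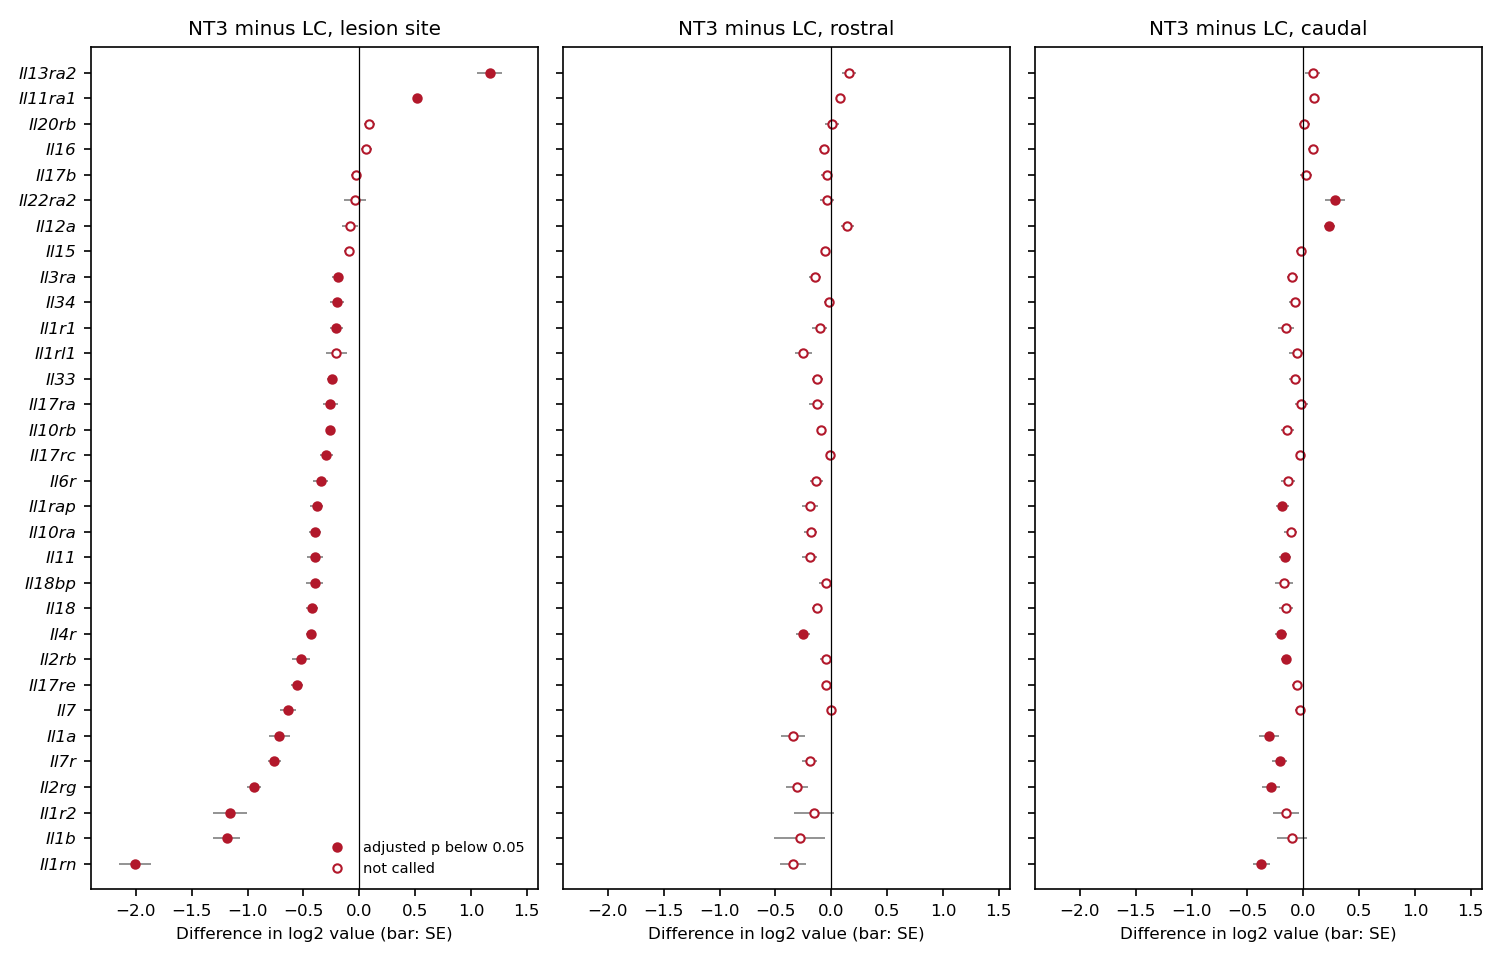
Mean difference NT3 minus LC (log2) for the 32 tested interleukin genes at the lesion, rostral and caudal sites, with bars of 1 SE and filled points for adjusted p-values under 0.05. At the lesion points spread from -2.01 for Il1rn to 1.17 for Il13ra2, while rostral and caudal points lie between -0.38 and 0.28.

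The empty tube, which separates the factor from the chitosan, was sampled over all days only beside the lesion. At the lesion, on day 3 alone, 39 of the 49 members in ET lay wholly above uninjured cord, against 41% of all 14218 genes, and 4 wholly below, against 32.1%. Set against LC of that day, 20 lay wholly above, against 17.6% of all genes, and 6 wholly below, against 21.9%. Il2rg had 9.42, 9.46 and 9.03 in ET on day 3, against 8.47, 8.64 and 8.88 in LC, so that ET, like NT3, lay wholly above LC. Il18bp had 8.81, 8.75 and 8.43 in ET, against 7.90, 7.85 and 8.26 in LC, also without overlap. Il1rn had 8.55, 8.96 and 7.77 in ET, which overlapped LC, and Il22ra2 had 6.73, 6.53 and 6.87, wholly below LC, as NT3 was. Il11ra1 had 8.26, 8.09 and 8.10 in ET, against 8.79, 8.80 and 8.94 in LC, and there too ET lay wholly below. Rostrally 15 genes were called lower in NT3 than in ET, against 12.8% of all genes, and 1 higher, against 17.4%, with a median of -0.14 against 0.01 for all genes. Il1rn differed by -0.62 (SE 0.12, adjusted p = 6.2e-05), Il1rl1 by -0.37, Il2rg by -0.34, Il1r1 by -0.27, Il7r by -0.25 and Il17re by -0.24, and Il12a rose by 0.20 (SE 0.06). The ET array of day 3 replicate 2 stood apart, at 12.39 for Il1b beside 7.42 and 8.06, and at 9.59 for Il1rn. Without it Il1rn differed by -0.51 and 15 genes were called. On the 5 days with RT1-CE10 alike 7 were called, with Il1rn at -0.47. Fibroblast markers were lower in NT3 than in ET in 7 of 7, skeletal muscle markers in 5 of 8 and neutrophil markers in 3 of 5, and neuron markers higher in 7 of 7. Against rostral LC, ET had fibroblast markers higher in 7 of 7, muscle markers higher in 5 of 8 and neuron markers lower in 6 of 7. Its neutrophil markers were higher in 2 of 5 and lower in 1. Of all tested genes, 951 were called higher and 1790 lower in ET. Between NT3 and LC rostrally 0 fibroblast, muscle or neuron markers were called, and 2 neutrophil markers were lower. The part of these cells in the NT3 minus ET differences was not tested.

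Caudally 3 genes were called lower in NT3 than in ET, against 3.73% of all genes, and 2 higher, against 4.65%. They were Il1rn at -0.38, Il1rl1 at -0.32 and Il7r at -0.22, and Il12a at 0.19 and Il11ra1 at 0.14. Il7r was no longer called without NT3 day 20 replicate 2, NT3 day 90 replicate 2, ET day 1 replicate 3 or ET day 90 replicate 1, with adjusted p up to 0.0534. Between ET and LC, 6 genes were called higher rostrally, against 7.9% of all genes, and 1 lower, against 14.9%. The higher ones were Il13ra2 at 0.29, Il17re at 0.20, Il15 at 0.18, Il7 at 0.18, Il17rc at 0.14 and Il11ra1 at 0.10, and Il10ra fell by 0.18. On the 4 days with RT1-CE10 alike 0 of the 32 members were called by limma, and 5 had an unadjusted p under 0.05. Il11ra1 and Il10ra also lost the call without any one of 25 and 6 arrays, with adjusted p up to 0.084. Caudally Il1rl1 was the 1 gene called higher, at 0.26 (SE 0.07, adjusted p = 0.028), against 1.72% of all genes, and 0 were lower, against 1.79%. At an unadjusted p under 0.05 limma gave 7. With the mean of its probe sets Il1rl1 differed by 0.11 (adjusted p = 0.167), which ended the call. With array weights 6 genes were called and with 1 fit of all arrays 2. On the days with RT1-CE10 alike 4 were called lower in ET, Il18bp, Il2rg, Il34 and Il3ra, and Il1rl1 was not, at 0.19 (adjusted p = 0.141). It was also not called without ET day 3 replicate 2 or LC day 30 replicate 1, with adjusted p up to 0.0519, and the count was 3 without ET day 1 replicate 2 and 2 without ET day 10 replicate 3 or LC day 60 replicate 3. NT3 minus LC, NT3 minus ET and ET minus LC share arrays, so their values stand side by side and no overlap is drawn.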

How the data were processed

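Adult rat spinal cord RNA was hybridised to 167 Affymetrix rat expression arrays. The authors deposited log2 values for 31099 probe sets, computed by RMA in Affymetrix Expression Console from GCOS images, per the submitters' processing notes; which arrays were normalised together is not given in the sources used here. The values were used as they stand. Groups followed the labels for segment, treatment and day. A gene with several probe sets was read from the one with the highest mean over all arrays. For each segment, limma 3.58.1 (R 4.3.3) fitted a mean per group together with the uninjured cords, and contrasts averaged over days. The two-sided p-values were corrected over 12041 genes by the Benjamini-Hochberg method. Members, gene lists and most alternatives were chosen with earlier results of these data known. In each comparison up to 6 called members of the largest difference in each direction were named, and a fixed set of members was described by group. The number of arrays limits the precision. Alternatives were other filters, scalings, probe set rules, weights, priors, blocks, covariates and single arrays left out. The procedure was tested on simulated data. Promoter letters came from RefSeq (GRCr8).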

Additional observations from a re-analysis of the deposited data

Results flagged for a closer look

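The NT3 minus LC difference at the lesion varied with the day in 29 of 32 tested interleukin genes by limma's F-test over the 6 days. The same test called 6095 of all 12041 tested genes. The F values were 45.5 for Il2rg, 31.6 for Il1a, 30.2 for Il11ra1, 24.3 for Il1rn, 22.2 for Il4r and 18.4 for Il7r.

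The 3 ET arrays at the lesion on day 3, the only ET day sampled there, entered no limma contrast and were compared by their values alone. In them 39 of the 49 interleukin genes lay wholly above the uninjured cords, against 41% of all 14218 genes, and 4 wholly below, against 32.1%. Il1r2 had 8.88, 9.07 and 8.78, a difference of 4.41 from uninjured cord, and Il1b had 10.24, 10.01 and 9.78, a difference of 3.97. Il2rg differed by 3.92, Il1rn by 2.96 and Il1rl1 by 2.81. Set beside LC of that day, 20 members lay wholly above and 6 wholly below, among them Il2rg above and Il34 below. Of all 14218 genes, 2507 lay wholly above LC and 3112 wholly below.

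Some members below the level filter, which were not tested, had a group wholly above the uninjured cords by more than 1 unit. Il17f had 6.49, 4.53 and 4.94 at the LC lesion on day 20, a difference of 1.67, and 3.58, 3.50 and 3.54 in NT3 on that day. Il10 was 1.29 above uninjured cord at the ET lesion on day 3. Il36b was 1.34 and Il27ra 1.09 above it at the LC lesion on day 30.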

How the results depend on the processing

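Of 1759 named differences recomputed under other settings, 1730 kept direction and side of the threshold, 29 lost the call and 0 reversed; with 1 array left out 2922 of 2977 kept both and 55 lost the call. Counts of called members stayed within 1.5 times in 257 of 271 cases. For NT3 minus LC rostrally (1) the count was 4 with 75th percentile scaling, 16 with array weights and 3 with 1 fit of all arrays. For NT3 minus LC caudally (10) it was 6 with the 60th percentile filter, 16 with array weights and 2 on the days with RT1-CE10 alike. For NT3 minus ET it was 7 rostrally (15 lower and 1 higher in the main setting) on the RT1-CE10 days and 8 caudally with array weights. For ET minus LC rostrally it was 11 with array weights and 0 on the RT1-CE10 days; caudally (1) it was 0 with the mean of probe sets, 6 with array weights, 2 with 1 fit of all arrays and 4 on the RT1-CE10 days. Array weights gave convergence warnings. The cause was not tested. Leaving out single arrays gave 1 to 7 for NT3 minus LC rostrally, 5 to 13 caudally and 0 to 3 for ET minus LC caudally. Of the 29 lost calls, 20 belonged to the RT1-CE10 days, where only 37 named differences were recomputed and 17 kept the call. Those days use fewer arrays, and whether this lies behind the lost calls was not tested. With the replicate number as a block the counts were 25 for NT3 minus LC at the lesion and 10 caudally, and no call or count changed; same-numbered arrays correlated at -0.47 to 0.58 and in few groups together, so the numbers were not read as pairs. Among the settings added after seeing the data, leaving out day 20 gave 22 called genes for NT3 minus LC at the lesion. Genes near array background limit what can be read.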
